A study of Mus musculus with 17 samples.

Results

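Myeloid leukemias that arose from granulocyte-macrophage progenitors (GMP) differed in whether they expressed myeloperoxidase, Mpo, the main enzyme of the primary (azurophil) granules of neutrophils. Of the 17 arrays of the series, 5 hold GMP-derived leukemias. The subsets were chosen by the measured level of Mpo, above or not above 11 on the log2 scale of its single probe set. Mpo was 13.34 in array 2 and 13.36 in array 4, which are called Mpo-high, and 7.71, 7.95 and 8.87 in arrays 1, 3 and 5, which are called Mpo-low. The arrays nearest the limit were array 2 at 13.34 above it and array 5 at 8.87 below it. No leukemia of this origin lay between them. The level in 2 arrays of healthy GMP was 13.88 and 13.95. The 3 leukemias from LSK cells (immature marrow cells defined by Sca1 and Kit) had 8.18, 11.18 and 11.70. These Mpo values made the division and are a description, with no test.

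All mice were C57/Bl6 and wildtype, and the donors were CD45.2. Donor GMP from the bone marrow were transformed with Myc and Bcl2, and the malignant cells were injected into a vein of recipients aged 4 to 8 weeks that had received 4.5 to 6 Gy of irradiation. Doses ran from 20000 to 1000000 cells, and acute leukemia was recorded when blasts of donor origin passed 10% in blood. Splenocytes of ill recipients were sorted as positive for CD11b and Gr1 and negative for CD3, CD4 and CD8, so every leukemia array holds cells chosen for myeloid surface proteins that rise during neutrophil maturation. Healthy GMP came from bone marrow, carried neither transgene and were not sorted by this gate, so leukemia, organ and sort cannot be told apart in any comparison with them. Each array used 300 ng of total RNA. The labels do not say whether replicates came from separate recipients or separate transformations, so p-values measure only the spread between these samples. No source used here names the promoter that drives the transgenes.

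Neutrophils are made in steps, and each step has its own genes. Progenitors carry the receptor Kit, and promyelocytes make Mpo and the serine proteases of primary granules. Myelocytes make secondary granule proteins such as lactoferrin, and later cells make gelatinase and the receptors for chemokines and bacterial peptides. Cebpa directs entry into the granulocyte line, whereas Irf8 favours monocytes. The lists below follow that order. All values are log2 expression levels on the deposited scale, differences are Mpo-high minus Mpo-low unless said otherwise, and errors of differences are standard errors (SE) from limma. A gene is called at an adjusted p under 0.05 (Benjamini-Hochberg over 10486 autosomal genes). The arrays were divided by the level of 1 gene measured on them, so a call says which genes went with Mpo in these 5 arrays and does not test a labelled condition.

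Promoters of Mpo and of Elane, Prtn3, Ctsg and Cst7, which rose with Mpo in the arrays, are shown. Those of Nkg7 and Srgn, which were also called higher, are not shown. Each is the 250 bases before the start given by RefSeq on GRCm38.p6, written 5′ to 3′ on the strand of the gene. Capitals mark the letters AGGAAGT, a form of the motif of PU.1 and other ETS factors, and CAACNG, a form of the Myb motif, searched on both strands. The motifs were chosen after the sequences had been seen.
Mpo promoter, chr11:87793534-87793783, plus strand: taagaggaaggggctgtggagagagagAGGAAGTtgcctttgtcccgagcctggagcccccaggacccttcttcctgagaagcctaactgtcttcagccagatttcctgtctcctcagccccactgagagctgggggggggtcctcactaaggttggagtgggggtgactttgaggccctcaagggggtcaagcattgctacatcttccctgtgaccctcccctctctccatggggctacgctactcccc
Elane promoter, chr10:79886062-79886311, plus strand: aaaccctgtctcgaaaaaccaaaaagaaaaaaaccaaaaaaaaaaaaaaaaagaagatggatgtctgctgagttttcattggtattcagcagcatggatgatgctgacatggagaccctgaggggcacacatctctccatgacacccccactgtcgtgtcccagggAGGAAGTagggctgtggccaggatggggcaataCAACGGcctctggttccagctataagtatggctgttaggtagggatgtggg
Prtn3 promoter, chr10:79879417-79879666, plus strand: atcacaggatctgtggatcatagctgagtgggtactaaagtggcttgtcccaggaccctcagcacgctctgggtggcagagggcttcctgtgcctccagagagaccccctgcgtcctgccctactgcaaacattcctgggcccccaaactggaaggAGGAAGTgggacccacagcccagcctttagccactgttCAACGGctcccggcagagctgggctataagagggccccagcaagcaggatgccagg
Ctsg promoter, chr14:56102575-56102824, minus strand: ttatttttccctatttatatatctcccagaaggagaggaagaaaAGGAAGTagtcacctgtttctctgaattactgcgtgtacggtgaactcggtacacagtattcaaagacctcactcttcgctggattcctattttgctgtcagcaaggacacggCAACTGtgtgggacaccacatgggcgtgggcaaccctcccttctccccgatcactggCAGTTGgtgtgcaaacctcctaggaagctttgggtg
Cst7 promoter, chr2:150570165-150570414, plus strand: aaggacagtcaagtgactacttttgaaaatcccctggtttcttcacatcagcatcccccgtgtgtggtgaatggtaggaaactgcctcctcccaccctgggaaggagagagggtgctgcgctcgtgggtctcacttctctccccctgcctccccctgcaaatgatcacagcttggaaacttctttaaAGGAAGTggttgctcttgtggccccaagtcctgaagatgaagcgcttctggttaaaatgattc
AGGAAGT was present once in each of these 5 promoters, at bases 223 to 217 before the start in Mpo, 84 to 78 in Elane, 94 to 88 in Prtn3, 206 to 200 in Ctsg and 63 to 57 in Cst7. CAACNG was present in Elane and Prtn3 once and in Ctsg on each strand, and the capitals of the 2 motifs shared no base. Of 32851 promoter windows of 250 bases, 7.69% held AGGAAGT and 29.3% held CAACNG on either strand. Of the 9 primary granule genes tested, which leave out Mpo, 5 held AGGAAGT and 6 held CAACNG. Nkg7 and Srgn held CAACNG but not AGGAAGT. A gene counted if any of its windows matched, so these counts are not on the scale of the shares of windows. A match shows the letters and not that a factor binds there, and no array measured binding.

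Most genes tested on the primary granule list, which also holds genes named for other granules such as Nkg7, rose with Mpo. Of 12 listed genes besides Mpo 9 were tested, 6 were called higher and 0 lower, with a median difference of 2.34. Over all genes tested, 14.2% were called, 8.73% as higher and 5.48% as lower, and the median difference was 0.07. Earlier results of these data had already shown this division of the primary granule mean, so the count is not independent support for it. Elane, neutrophil elastase, was 12.11 and 12.20 in the Mpo-high arrays, 7.72, 6.98 and 7.15 in the Mpo-low arrays, and 12.32 and 12.39 in healthy GMP. The Mpo-high arrays thus lay just under healthy GMP and the Mpo-low arrays far below both. The difference was 4.87 ± 0.70 (SE, n = 2 and 3, fold 29.2, adjusted p = 6.57e-04). Cst7, cystatin F, an inhibitor of granule cathepsins, was 10.14 and 10.22 against 4.26, 4.67 and 5.10, with 12.01 and 12.22 in healthy GMP. It did not overlap in any pair of groups, and its difference was 5.50 ± 0.31 (fold 45.3, adjusted p = 1.65e-07). Nkg7, a membrane protein of cytotoxic granules, was 10.95 and 10.99 against 6.25, 6.90 and 7.75, a difference of 4.00 ± 0.61 (adjusted p = 0.00101).

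Mpo-low array 1 kept more of some primary granule genes than arrays 3 and 5. Ctsg, cathepsin G, was 12.92 and 12.82 in the Mpo-high arrays, 10.90 in array 1, 8.31 in array 3 and 8.87 in array 5. Array 1 lay between the other Mpo-low arrays and the Mpo-high ones, and the difference was 3.51 ± 0.90 (adjusted p = 0.0197). Prtn3, proteinase 3, was 12.51 and 12.74 against 10.94, 9.82 and 10.08, in the same order of arrays, with a difference of 2.34 ± 0.66 (adjusted p = 0.0308). Ms4a3, a membrane protein typical of GMP, was 12.50 and 12.16 against 11.02, 9.88 and 10.35, a difference of 1.91 ± 0.74 that did not pass (adjusted p = 0.107). Ctsc, cathepsin C, which activates the granule proteases, was at background in array 1 alone, at 3.59 there and 8.36 to 9.03 in the other 4 leukemias. Its difference of 1.81 ± 1.14 did not pass (adjusted p = 0.332). Srgn, serglycin, the proteoglycan that packs granule proteins, rose by 0.53 ± 0.16 (adjusted p = 0.0412), and the lysosomal enzyme Hexa differed by 0.01 ± 0.38. Without array 2, 3, 4 or 5 the list kept 3 calls, Elane, Cst7 and Nkg7, and without array 1 it kept 6. The difference of Ctsg then ran from 2.98 to 4.28 (adjusted p up to 0.109), that of Prtn3 from 2.11 to 2.67 (up to 0.178) and that of Srgn from 0.45 to 0.60 (up to 0.227).

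**Figure D1:**
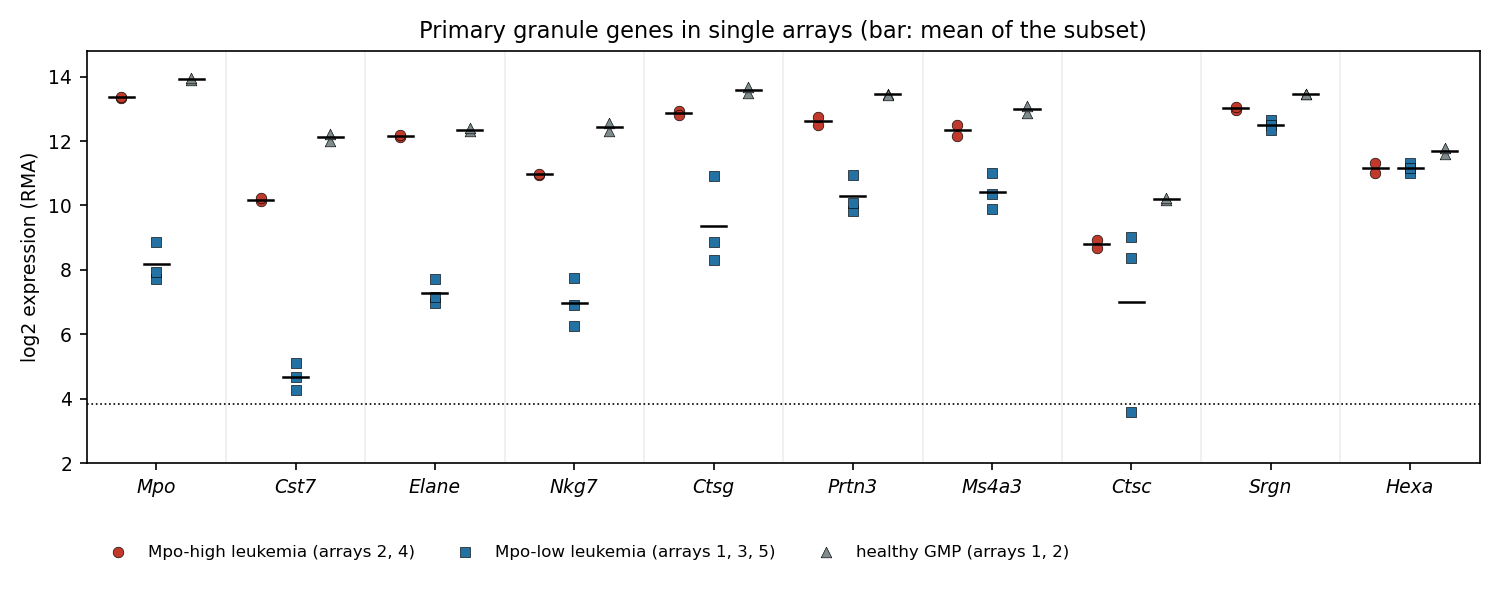
Log2 level of Mpo and the 9 primary granule genes tested, in single arrays; circles are the 2 Mpo-high and squares the 3 Mpo-low leukemias, triangles the 2 healthy GMP arrays, bars the means, and the dotted line the median of all values (3.83). Mpo-high arrays lie near healthy GMP for Elane, Ctsg and Prtn3, while Mpo-low arrays lie below; Ctsc is at 3.59 in 1 Mpo-low array, and Hexa overlaps between the subsets.

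Chaperones of the secretory pathway, which fold proteins bound for granules, changed little. Of 19 tested, 2 were called higher and 0 lower, against 8.73% and 5.48% of all genes, with a median of 0.24. Manf, a chaperone-associated factor of the endoplasmic reticulum, was 10.78 and 11.23 against 9.52, 10.08 and 10.17 (difference 1.09 ± 0.29, adjusted p = 0.023). Calr, calreticulin, was 11.38 and 11.68 against 11.02, 10.92 and 10.86 (0.60 ± 0.17, adjusted p = 0.0345). The groups did not overlap for either gene, but the Calr call was lost without each of the 5 arrays in turn (differences of 0.44 to 0.75, adjusted p up to 0.288), and the Manf call without array 1 or 4 (0.86 to 1.31, up to 0.216). Dnajc3 and Sdf2l1, other factors of this folding machinery, differed by 0.61 ± 0.29 and 0.59 ± 0.34 (adjusted p = 0.198 and 0.273). Xbp1, a regulator of the folding response chosen after its values were seen, lay between 11.96 and 12.46 in all 5 leukemias.

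Kit and Cdk6 were the progenitor genes that rose with Mpo. Of 16 tested, 2 were called higher in the Mpo-high arrays and 0 lower, against 8.73% and 5.48% of all genes. The median was 0.18, against 0.07 over all genes, so the list as a whole stood near all genes. Kit, the stem cell factor receptor, was 6.81 and 6.67 in the Mpo-high arrays, 3.26, 3.30 and 3.18 in the Mpo-low arrays, and 9.54 and 9.46 in healthy GMP. The Mpo-low values are at background, the Mpo-high values stand between them and healthy GMP, and the difference was 3.49 ± 0.29 (adjusted p = 9.60e-06). Cdk6, a cyclin-dependent kinase abundant in progenitors, was 10.77 and 10.51 against 9.62, 9.10 and 9.42 (1.26 ± 0.29, adjusted p = 0.0123). Its call was lost without array 2 or 4 (1.12 to 1.39 over all arrays left out, adjusted p up to 0.0917). Myb, a transcription factor of immature blood cells, was 9.98 and 9.76 against 8.49, 8.45 and 8.18, a gap with no overlap that did not pass (1.50 ± 0.50, adjusted p = 0.06). Flt3, a receptor of early progenitors, was 6.35 in array 2 and 4.27 in array 4 against 3.36 to 3.60 in the Mpo-low arrays, and did not pass (adjusted p = 0.0913). Chosen after their values were seen, the stem and progenitor genes Cd34 (2.52 to 3.16), Meis1 (3.08 to 3.24) and Cd27 (3.25 to 3.71) were at background in all 5 leukemias, against 10.06 and 9.84, 7.05 and 6.14, and 7.72 and 7.44 in healthy GMP.

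Secondary granule genes were high in every leukemia, with list means of 11.53 to 12.52. Of 17 tested, limma called 0 in either direction, 1 had a difference above 0 and the median was -0.45; over all genes 2933 had an unadjusted p under 0.05. In 14 of the 17 the Mpo-high arrays lay wholly below the Mpo-low arrays, whereas over all genes tested the arrays did not overlap in 48.0%, with 27.9% higher and 20.1% lower. Ltf, lactoferrin, chosen after its values were seen, was 13.14 in both Mpo-high arrays and 13.50, 13.54 and 13.52 in the Mpo-low arrays, against 4.34 and 3.92 in healthy GMP. Its gap of 0.38 between the subsets compares with one of over 9 to the healthy cells. Camp, the cathelicidin peptide, also chosen after its values were seen, was 13.65 and 13.81 against 13.98, 14.05 and 14.01. The largest value of the whole table was 14.25, not far above these genes. Whether the scale limits their differences was not tested. Mmp8, neutrophil collagenase, was 11.90 and 10.64 against 12.21 to 13.22 (-1.54 ± 0.74, adjusted p = 0.19). Lrg1, a secreted glycoprotein of granules, was 10.06 and 8.29 against 10.40, 11.30 and 10.74 (-1.64 ± 0.74, adjusted p = 0.162). Pglyrp1, a peptidoglycan-binding protein, was 10.15 and 9.66 against a Mpo-low mean of 11.04 (-1.14 ± 0.59, adjusted p = 0.232), and Ifitm6 differed by -1.28 ± 1.12 (adjusted p = 0.513). Array 4 was lower than array 2 for Mmp8, Lrg1 and Pglyrp1, so the Mpo-high arrays differed between themselves.

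Adam8, Slpi and Mxd1 were the late neutrophil genes that fell where Mpo was high. Of 18 tested, 3 were called lower and 0 higher, against 5.48% and 8.73% of all genes. All 18 differences were below 0, and the median was -1.15. The Mpo-high arrays lay wholly below the Mpo-low arrays in 10, against 20.1% over all genes. Adam8, a surface metalloprotease of mature granulocytes, was 8.34 and 8.11 in the Mpo-high arrays and 9.79, 10.12 and 10.43 in the Mpo-low arrays, with 3.63 and 3.72 in healthy GMP. All groups stood apart, and the difference was -1.89 ± 0.19 (adjusted p = 5.11e-05). Slpi, an inhibitor of elastase and cathepsin G, was 10.02 and 10.11 against 11.35, 12.20 and 11.86 (-1.74 ± 0.32, adjusted p = 0.00311). Between the subsets Slpi thus ran opposite to the proteases it inhibits. Healthy GMP, where Elane and Ctsg were highest, had 10.79 and 11.18 of Slpi, above the Mpo-high arrays, so this order did not extend to healthy GMP. Mxd1, a repressor that competes with Myc for Max, was 8.79 and 9.55 against 11.07, 11.16 and 11.32 (-2.02 ± 0.56, adjusted p = 0.0283), and its call was lost without each array in turn (-2.40 to -1.63, adjusted p up to 0.188). Arg2, a mitochondrial arginase, overlapped between the subsets (-2.01 ± 0.96, adjusted p = 0.19). S100a8 and S100a9, the calprotectin subunits, chosen after their values were seen, were 13.64 to 14.11 in all 5 leukemias.

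Ccr1, Itgal and Selplg were the receptors of mature neutrophils that fell where Mpo was high. Of 18 tested, 3 were called lower and 0 higher, against 5.48% and 8.73% of all genes, with a median of -1.30. The Mpo-high arrays lay wholly below the Mpo-low arrays in 14, against 20.1% over all genes. Ccr1, a chemokine receptor, was 7.57 and 6.76 against 9.08, 10.28 and 9.56, with 4.39 and 4.16 in healthy GMP (-2.47 ± 0.48, adjusted p = 0.00438). A second Ccr1 probe set gave -3.64. Itgal, the CD11a integrin chain, was 10.06 and 9.22 against 11.50, 11.10 and 11.22 (-1.63 ± 0.45, adjusted p = 0.0262), and Selplg, the selectin ligand used in rolling, was 9.01 and 8.99 against 10.00, 10.22 and 10.58 (-1.27 ± 0.35, adjusted p = 0.0258). Healthy GMP had 9.12 and 9.09 of Itgal, near array 4, and 9.29 and 9.42 of Selplg, above the Mpo-high arrays. Without array 4 limma called 0 of the 18 as lower, without array 5 it called 1 and without any other array 2, and the median stayed between -1.56 and -1.03. The Ccr1 difference was at its weakest -2.07 (adjusted p up to 0.0676), the Itgal difference -1.21 (up to 0.255) and the Selplg difference -1.11 (up to 0.142). Fcgr4, a receptor for IgG, was 7.16 and 7.90 against 9.86, 10.51 and 10.56, which did not pass in spite of the gap (-2.78 ± 1.49, adjusted p = 0.245). The SD of Fcgr4 was 0.53 within the Mpo-high and 0.39 within the Mpo-low arrays, below the pooled error. Of the 4 genes of the NADPH oxidase, which makes superoxide, Ncf4 was lower (9.87 and 10.26 against 11.07, 11.96 and 11.59; -1.48 ± 0.43, adjusted p = 0.0354), and its call was lost without array 2, 3, 4 or 5 (-1.72 to -1.27, adjusted p up to 0.187). Cyba, Vav1 and Rac2, its membrane subunit, an activator and the GTPase, differed by -0.43 ± 0.33, -0.35 ± 0.35 and -0.27 ± 0.27 (adjusted p = 0.447, 0.576 and 0.58). In healthy GMP Ncf4 was 10.21 and 10.23, within the range of the Mpo-high arrays.

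**Figure D2:**
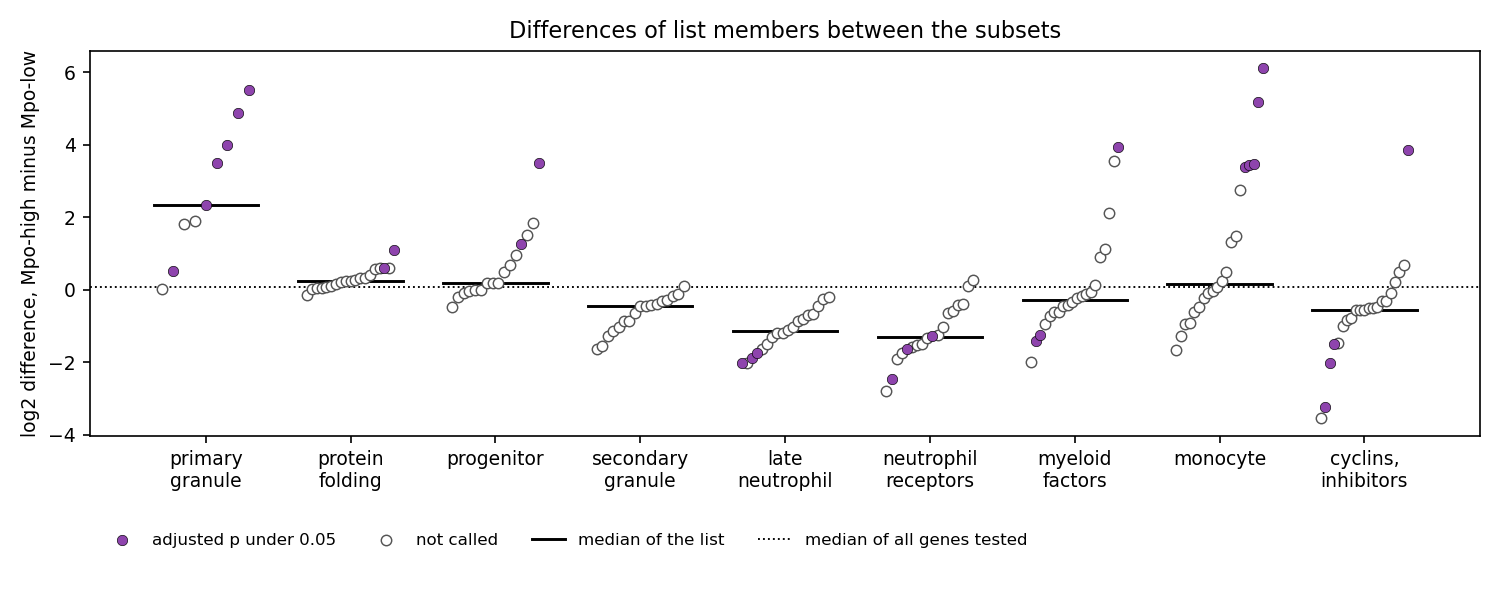
Log2 difference (Mpo-high minus Mpo-low) of every tested member of 9 gene lists, sorted within each list; filled points have an adjusted p under 0.05, short lines are list medians and the dotted line is the median of all genes tested (0.07). Primary granule members lie at or above 0, with a median of 2.34, and late neutrophil members lie below 0, with a median of -1.15.

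Seen as means of a list per array, the subsets did not overlap at 5 steps of maturation. This was not particular to maturation, as 48.0% of all single genes did not overlap either. Means of other lists also stood apart, such as p53 response (9.12 and 8.93 against 9.38 to 9.93) and glycolysis (9.77 in both against 9.78 to 9.98). The primary granule mean was 11.56 and 11.58 in the Mpo-high arrays and 8.71 to 9.02 in the Mpo-low arrays. The secondary granule mean was 11.93 and 11.53 against 12.31 to 12.52, the late neutrophil mean 9.86 and 10.04 against 10.56 to 11.38, and the neutrophil receptor mean 9.08 and 8.73 against 9.91 to 10.27. The progenitor mean was 5.73 and 5.48 against 4.90 to 5.05, far below the 8.54 and 8.25 of healthy GMP. Array 1 had the lowest late neutrophil mean of the Mpo-low arrays, 10.56 against 11.38 and 11.33. In a bulk sample, fewer cells at a stage and less RNA per cell cannot be told apart, so these means do not say whether every cell of a leukemia shifted or whether the mix of cells did.

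**Figure D3:**
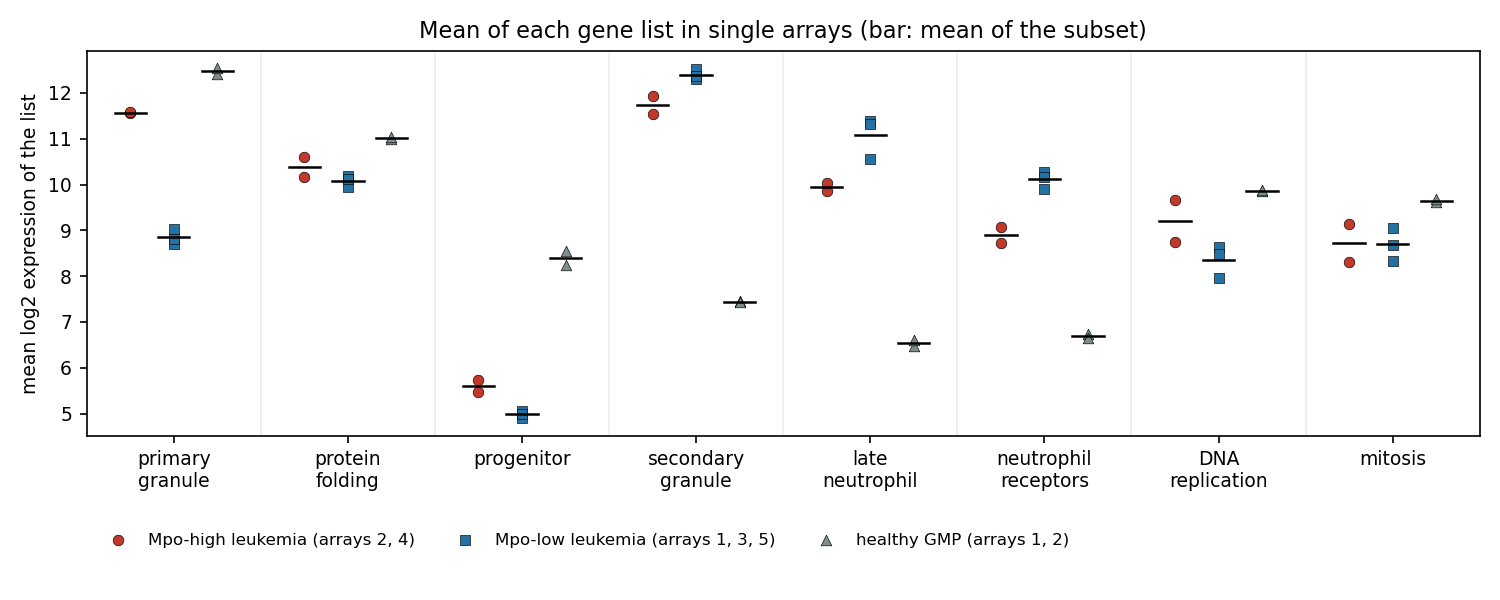
Mean log2 level of the tested members of 8 lists in single arrays; circles are the Mpo-high and squares the Mpo-low leukemias, triangles healthy GMP, and bars the subset means. The primary granule mean is 11.56 and 11.58 in the Mpo-high arrays against 8.71 to 9.02, and the mitosis mean overlaps between the subsets.

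Among 20 myeloid transcription factors tested, 1 was called higher and 2 lower, against 8.73% and 5.48% of all genes. The median was -0.29. Cebpa was 7.87 and 8.35 in the Mpo-high arrays, 4.30, 3.78 and 4.41 in the Mpo-low arrays, and 8.96 and 9.23 in healthy GMP. The Mpo-low values were near background, and the difference was 3.95 ± 0.71 (fold 15.4, adjusted p = 0.00276). Irf8 followed the same order, at 6.69 and 8.11 against 3.46, 3.95 and 4.14, with 10.00 and 9.79 in healthy GMP, but did not pass (3.55 ± 1.22, adjusted p = 0.0691). Its second probe set differed by 2.25. Rara, the retinoic acid receptor, was 3.91 and 3.89 against 5.10, 5.17 and 5.70 (-1.42 ± 0.32, adjusted p = 0.0105), a call lost without array 2 or 4 (-1.54 to -1.23, adjusted p up to 0.0751). Id2, an inhibitor of helix-loop-helix factors, was 10.05 and 9.45 against 11.25, 10.64 and 11.09 (-1.25 ± 0.21, adjusted p = 0.00189), and -2.25 at a second probe set. Chosen after their values were seen, Spi1, which encodes PU.1, was 9.32 and 9.06 against 9.71 to 9.95 (adjusted p = 0.595), Gfi1, a repressor needed for granulocytes, 10.20 and 10.51 against 9.21 to 9.82 (adjusted p = 0.0759), and Cebpb and Cebpd stood at or above 10.62 in all 5. Of these 4 factors and Cebpa, only Cebpa was called.

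Part of the monocyte list was high together with Mpo. Of 20 tested genes, 5 were called higher and 0 lower, against 8.73% and 5.48% of all genes, and the median was 0.16. F13a1, coagulation factor XIII subunit A, was 9.41 in array 2, with a mean of 9.21 over both Mpo-high arrays, and 3.01, 3.11 and 3.16 in the Mpo-low arrays, with 11.45 and 11.26 in healthy GMP. The Mpo-low values are background, and the difference was 6.11 ± 0.86 (fold 69.2, adjusted p = 5.45e-04). Ly86, the MD-1 partner of a Toll-like receptor homologue, was 8.64 and 9.97 against 3.40, 4.03 and 4.94 (5.18 ± 1.44, adjusted p = 0.0284). The other 3 called genes were Vcam1, an adhesion molecule, Ms4a6c and Vcan, versican, at 3.48, 3.43 and 3.38 higher, named after their values were seen. Without 1 array the count was 2 to 4, with 2 without array 1 or 2 and 3 without array 3. Ly86 was lost without array 1, 2, 3 or 4 (4.52 to 5.84, adjusted p up to 0.206). In all, 7 of the 20 members lay wholly higher in the Mpo-high arrays and 4 wholly lower, near the 27.9% and 20.1% of all genes. Of members not called, chosen after their values were seen, the receptor Csf1r was 5.64 and 6.45 against 5.75, 5.75 and 6.74, Cx3cr1 was 3.23 to 3.89 in all 5, and Adgre1, a macrophage surface receptor, was lower at 7.11 and 7.17 against 8.82, 8.10 and 9.44 without passing (adjusted p = 0.327). The mean of the list was 7.32 and 7.37 against 6.05 to 6.56, and 6.74 and 6.62 in healthy GMP. The part of monocytic cells in the other results was not tested.

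**Figure D4:**
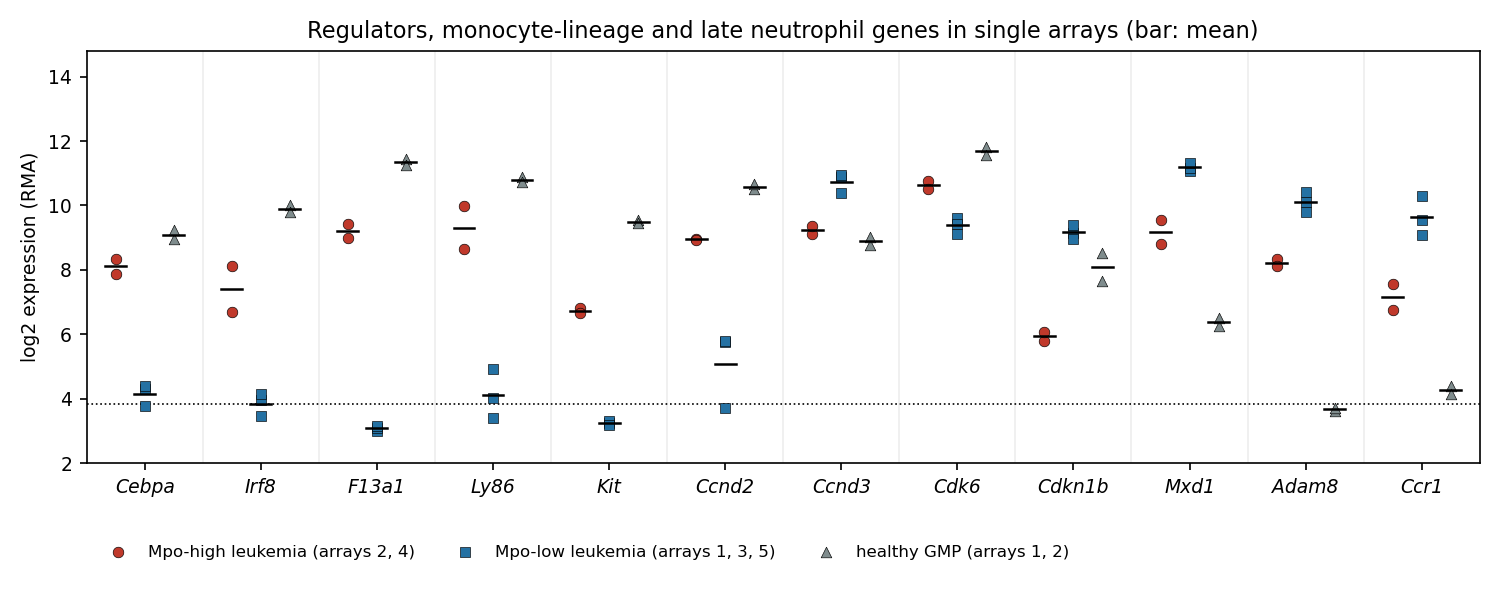
Log2 level of 12 genes in single arrays; circles are the Mpo-high and squares the Mpo-low leukemias, triangles healthy GMP, bars the means and the dotted line the median of all values (3.83). Cebpa, F13a1 and Kit are at or near background in the Mpo-low arrays, Cdkn1b is 5.81 and 6.08 in the Mpo-high arrays against 8.97 to 9.39, and Adam8 and Ccr1 are low in healthy GMP.

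Lists for other blood cells gave few calls each, where 8.73% of all genes were called higher and 5.48% lower. Hdc, histidine decarboxylase, which basophils, mast cells and neutrophils express, was lower at 8.05 and 8.91 against 11.34, 11.48 and 11.25 (-2.88 ± 0.38, adjusted p = 3.91e-04). Mcpt8, a basophil protease, was higher (2.12 ± 0.58, adjusted p = 0.0261) at 6.95 and 6.71 against 5.82, 4.15 and 4.15, a call lost without array 2, 3, 4 or 5 (1.84 to 2.68, adjusted p up to 0.129). Of the 11 eosinophil, basophil and mast cell genes tested, 1 was called higher and 2 lower, with a median of 0.02. In the MHC class II and dendritic list limma called 0 of 9 (median 0.48), with Cd74 and H2-Ab1 at 0.77 each (adjusted p = 0.732 and 0.764), both highest in array 4 at 6.44 and 6.21. Of 8 T and NK cell genes tested 1 was called in each direction, Lat at 1.41 ± 0.29 (adjusted p = 0.00641) and Bcl11b at -2.53 ± 0.74 (adjusted p = 0.0357). Lat was lost without array 4 (adjusted p = 0.0735 at most) and Bcl11b without array 2, 3, 4 or 5 (up to 0.165), and a second Bcl11b probe set differed by -0.50. Of 5 B-lineage genes tested 1 was called, Vpreb1, at 4.68 and 4.99 against 3.45 to 3.79 (1.24 ± 0.27, adjusted p = 0.009; lost without array 4, adjusted p = 0.0962 at most), while Cd79b differed by -0.45 ± 0.59. Of 10 erythroid genes tested 1 was called higher, Klf1 (0.92 ± 0.27, adjusted p = 0.0337; lost without array 1, 2, 3 or 5, adjusted p up to 0.359). Without array 4 the erythroid count was 3, and without any other array 0. All 10 erythroid differences were above 0, and in 4 the arrays did not overlap, against 27.9% wholly higher over all genes. The erythroid mean was 6.31 in array 2, 5.25 in array 4 and 5.08 to 5.19 in the Mpo-low arrays, with no overlap, and its part in the other results was not tested. Of 9 platelet genes tested 1 was called lower, Vwf (-2.00 ± 0.55, adjusted p = 0.0268; lost without array 1, 2, 4 or 5, adjusted p up to 0.144), Itgb3 differed by 1.30 ± 0.58 (adjusted p = 0.159), the list means were 4.35 and 4.30 against 4.37 to 4.47, and of 4 stromal genes limma called 0, with Acta2 and Cxcl12 at -0.68 ± 0.45 and 0.20 ± 0.19.

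The labels' sort and transgenes were checked on the arrays. Itgam, the CD11b gene, was 8.15 and 8.06 in the Mpo-high arrays and 9.23, 9.88 and 9.95 in the Mpo-low arrays, against 5.21 and 4.67 in healthy GMP. It was present in all 5 leukemias and, with no overlap, lower in the Mpo-high ones, but the difference did not pass (-1.58 ± 1.09, adjusted p = 0.384). The SD of Itgam was 0.06 within the Mpo-high and 0.4 within the Mpo-low arrays, below the pooled error. Ptprc, the CD45 gene, was lower, with a difference of -0.75 ± 0.19 (adjusted p = 0.0167; lost without array 2 or 4, adjusted p up to 0.127). Ly6c1, whose product the Gr1 antibody can bind, was 12.47 to 13.02 in all 5 (0.45 ± 0.17, adjusted p = 0.0946), and Ly6g, the main Gr1 gene, was not tested, as no probe set carried its name alone. Cd4 and Cd8a probe sets read 3.01 to 3.70 in the 5 leukemias, Cd3e 5.05 to 5.24, and Cd3d, another CD3 chain, 6.95 to 8.53 with overlap between the subsets. Cd3d was 3.85 and 3.44 in healthy GMP and was called higher than there in both subsets, by 3.53 and 4.25. Cd3e was 5.16 and 5.33 in healthy GMP, and Cd3g read 3.30 to 3.79 in the leukemias. The cause of the Cd3d level in cells sorted as negative for CD3 was not tested. Mycn was 12.79 and 12.06 in the Mpo-high arrays and 13.15, 12.28 and 12.45 in the Mpo-low arrays, against 3.96 and 4.58 in healthy GMP. Myc was 5.99 and 5.64 against 6.49, 5.68 and 6.41, and 10.65 and 10.37 in healthy GMP. The labels name Myc, whereas on the arrays Mycn was the family member far above healthy GMP, and this mismatch was not resolved. Bcl2 was 10.91 and 10.08 against 11.53, 10.32 and 10.95, and 6.51 and 5.89 in healthy GMP. A second Bcl2 probe set ran the other way, at 3.61 to 4.00 in the 5 leukemias against 8.91 and 8.62 in healthy GMP, and the other 2 Mycn probe sets were at background in the leukemias, at 2.63 to 3.50. On the probe sets tested, the subsets overlapped in all 3 genes, and their differences were -0.20 ± 1.69 for Mycn, -0.38 ± 0.28 for Myc and -0.44 ± 1.15 for Bcl2 (adjusted p = 0.959, 0.411 and 0.859). The errors pool the spread of all groups, and Mycn was 12.82, 4.91 and 4.22 in the LSK leukemias, so the test of Mycn is weak.

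Ccnd2 rose and Cdkn1b fell where Mpo was high. Of 21 cyclins and inhibitors tested, 1 was called higher and 3 lower, against 8.73% and 5.48% of all genes, with a median of -0.56. In 17 the difference was below 0. The Mpo-high arrays lay wholly below the Mpo-low arrays in 11 and wholly above in 3, against 20.1% and 27.9% over all genes. Ccnd2, cyclin D2, was 8.95 and 8.94 in the Mpo-high arrays, 3.71, 5.76 and 5.80 in the Mpo-low arrays and 10.50 and 10.66 in healthy GMP. The Mpo-high arrays stood nearer to healthy GMP, and the difference was 3.85 ± 0.54 (adjusted p = 5.20e-04). Ccnd3, cyclin D3, named after its values were seen, ran the other way, at 9.13 and 9.35 against 10.38, 10.88 and 10.95 (difference of -1.50 ± 0.26, adjusted p = 0.00252). Cdkn1b, which encodes the inhibitor p27, was 5.81 and 6.08 against 9.14, 8.97 and 9.39 (-3.22 ± 0.36, adjusted p = 1.07e-04). Healthy GMP had 8.54 and 7.67, so the Mpo-high arrays were the low group. Second probe sets with low signal differed by 0.56 for Ccnd2 and -0.40 for Cdkn1b, at means of 3.57 and 3.01 and of 3.97 and 4.37. Cdkn2a, the Ink4a/Arf locus, chosen after its values were seen, was 4.68 and 5.44 against 8.97, 8.49 and 8.37, and did not pass (-3.54 ± 1.49, adjusted p = 0.135). Among 20 DNA replication genes all differences were above 0, with a median of 0.85. The 2 called higher were near the 8.73% of all genes. They were Gins2, a subunit of the replicative helicase, by 2.03 ± 0.51 (adjusted p = 0.0173) and Cdt1, a licensing factor, by 0.94 ± 0.19 (adjusted p = 0.00572). Without array 4 limma called 0 of the 20, with Gins2 at 1.47 and Cdt1 at 0.81; Gins2 was also lost without array 1 (adjusted p up to 0.209). The count was 5 without array 2, 3 without array 3, 2 without array 5 and 1 without array 1. The replication mean was 8.74 in array 2 and 9.66 in array 4 against 7.97, 8.64 and 8.48, so array 2 lay just above array 3. In the mitosis list limma called 0 of 19, with a median of 0.02; Ccnb2, a mitotic cyclin, and the proliferation marker Mki67 differed by 0.95 ± 0.99 and -0.94 ± 0.77 (adjusted p = 0.599 and 0.479). Mki67 was 9.51 and 10.39 against 10.54, 11.18 and 10.96, so no subset lacked it. Ribosome biogenesis genes gave 0 calls of 22 by limma, but all 22 differences were above 0, in 19 the arrays did not overlap (27.9% over all genes), and the median was 0.52. The list means were 9.55 and 9.52 against 8.89 to 9.10. The named members were Wdr12 (1.17 ± 0.62, adjusted p = 0.243) and Utp20 (0.89 ± 0.35, adjusted p = 0.109), and of 13 glycolysis genes 1 was called, Tpi1 (0.69 ± 0.18, adjusted p = 0.0234; lost without array 1, 2, 4 or 5, adjusted p up to 0.145), while Hk3 differed by -0.53 ± 0.61.

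Across all genes, 1490 of 10486 were called between the subsets, 915 higher and 575 lower, and 945 of them by 2-fold or more. Among called genes, the largest rises without overlap were in Plet1, F13a1, Cst7, Ly86, Gstt2, Elane, Chpt1 and Afap1. Plet1, a surface protein of epithelial progenitors, was 9.38 and 9.76 against 3.24, 3.06 and 3.21, and only 4.20 and 3.84 in healthy GMP. Unlike Elane or F13a1 it was thus low in healthy GMP, and its difference was 6.40 ± 0.16 (fold 84.4, adjusted p = 1.67e-11), although 1 of its 2 other probe sets differed by 0.18 and the other by 4.18. Gstt2, a glutathione transferase, and Chpt1, which makes phosphatidylcholine, rose by 4.96 ± 0.34 and 4.57 ± 0.62 (adjusted p = 1.90e-06 and 4.61e-04). Afap1, an actin-binding protein, rose by 4.30 ± 1.01 (adjusted p = 0.0127), with 6.73 in Mpo-low array 1 against 2.89 and 3.70 in arrays 3 and 5 (lost without array 2 or 4, adjusted p up to 0.0915). Among called genes without overlap, the largest falls were in Ptger3, Pira1, Ush1c, Ifitm1, Mctp2, Tex15, Amotl1 and Cdkn1b. Ptger3, a prostaglandin E receptor, was 3.27 and 4.09 against 7.69, 7.80 and 8.51 (-4.32 ± 0.62, adjusted p = 6.16e-04). Pira1, a paired immunoglobulin-like receptor, was 5.51 and 6.15 against 8.57, 10.33 and 10.40 (-3.94 ± 0.47, adjusted p = 1.77e-04), but its near-identical relatives can share the probes. Ifitm1, an interferon-induced membrane protein, was 4.96 and 5.72 against 8.70, 8.93 and 9.23 (-3.61 ± 0.71, adjusted p = 0.00471). Ush1c, Mctp2, Tex15 and Amotl1 fell, with differences of -3.75 ± 0.72, -3.38 ± 0.73, -3.32 ± 0.94 and -3.28 ± 0.40 (adjusted p = 0.00442, 0.00862, 0.0308 and 1.87e-04), and a second Amotl1 probe set differed by -1.36. Calls were lost without array 2 for Ush1c and Ifitm1 (adjusted p up to 0.061 and 0.0508), without array 2 or 4 for Mctp2 (0.0611) and without array 2, 3, 4 or 5 for Tex15 (0.161). The total of 1490 fell to 553 without array 4, 771 without array 2 and 980 without array 5.

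Each subset was then set against healthy GMP to place it on the maturation series. The 2 comparisons share the healthy arrays, and they rest on 2 and on 3 leukemia arrays, so their counts cannot be set against each other. Against healthy GMP, 10.1% of genes were called in the Mpo-high arrays (4.52% higher, 5.62% lower) and 38.9% in the Mpo-low arrays (14.9% higher, 24.0% lower), and the median differences were -0.07 and -0.17. The median absolute difference from the healthy mean, which does not depend on calls, was 0.42 and 0.30 in arrays 2 and 4, and 0.66, 0.54 and 0.59 in arrays 1, 3 and 5. Genes at least 3 apart on the log2 scale numbered 308 and 260 against 544, 520 and 535. Across genes, which are not independent, arrays 2 and 4 correlated with the healthy mean at 0.895 and 0.917 and the Mpo-low arrays at 0.823 to 0.840. Pairs within a subset correlated at 0.966 to 0.988 and pairs across at 0.922 to 0.940. By the median absolute difference, the number of genes at least 3 apart and the correlation with the healthy mean, the Mpo-high arrays lay nearer to healthy GMP. They still differed from them at 1063 called genes, a count that was 572 without array 2 and 576 and 581 without healthy array 1 or 2; the 4076 of the Mpo-low subset became 2669 and 2512 without the healthy arrays in turn.

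All 9 primary granule genes were below healthy GMP in the Mpo-high arrays, by differences of -1.94 to -0.20 with a median of -0.71, and 1 of them, Cst7, was called lower. With 2 arrays a group, a missing call does not show an equal level. In the Mpo-low arrays 8 of 9 were called lower, with a median of -3.20, including Cst7 at -7.44, Nkg7 at -5.47 and Elane at -5.07. Secondary granule genes were far above healthy GMP in both, with 12 of 17 called higher in the Mpo-high arrays (median 4.78) and 13 of 17 in the Mpo-low arrays (median 5.38). Mmp8 stood 7.26 and 8.80 above healthy GMP in the 2 subsets, and Ltf, chosen after its values were seen, 9.01 and 9.39. For late neutrophil genes 10 and 14 of 18 were called higher (medians 3.24 and 5.21), with Adam8 at 4.55 and 6.43 and Mxd1 at 2.78 and 4.79. For neutrophil receptors 6 and 13 of 18 were called higher (medians 1.78 and 3.00), with Ccr1 at 2.89 and 5.37. Progenitor genes were called lower in 10 and 14 of 16 (medians -2.46 and -3.17), with Kit at -2.76 and -6.25. Some of the 16, among them Cd34, Meis1 and Cd27, were at background in every GMP-derived leukemia. They were tested only because healthy GMP stood above background, so they could only lie below healthy GMP. Angpt1, Mecom and Bcat1, at background in both, were not tested. The 10 and 14 of 16 progenitor genes thus follow in part from the choice of tested genes. The late neutrophil counts carry the same limit in the other direction. Adam8 and Arg2, with healthy means of 3.68 and 3.13, passed the filter only through the leukemias, so they could only lie above healthy GMP. Mmp8 of the secondary granule list was near background in healthy GMP, at a mean of 4.01. Cebpa was -0.98 from healthy GMP in the Mpo-high arrays, which did not pass (adjusted p = 0.524), and -4.93 in the Mpo-low arrays (adjusted p = 1.24e-04). DNA replication gave 0 calls of 20 by limma in the Mpo-high arrays (median -0.76) and 13 lower in the Mpo-low arrays (median -1.53). Some secondary and late members were high in healthy GMP too, among them, chosen after their values were seen, S100a8 (mean 12.47), the haptoglobin gene Hp (11.67) and the receptor Trem3 (11.26), and the Mpo-high mean of Trem3 was 11.03.

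**Figure D5:**
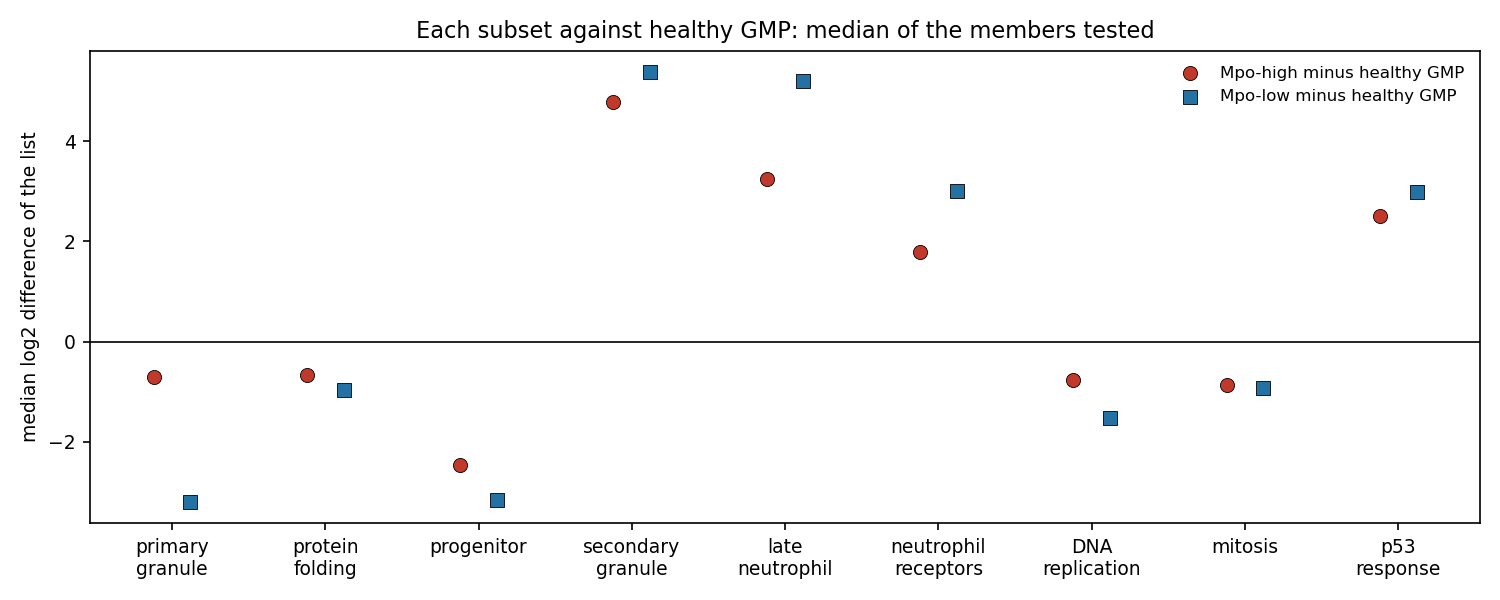
Median log2 difference from healthy GMP over the tested members of 9 lists, for the Mpo-high (circles) and Mpo-low (squares) leukemias; both share the 2 healthy arrays. Primary granule medians are -0.71 and -3.20, late neutrophil medians 3.24 and 5.21, and the mitosis medians lie close to each other.

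Measures of array quality overlapped between the subsets. The 3′ minus 5′ log2 level of the control probe sets, which rises with RNA breakdown, was 0.19 and 0.07 for Gapdh in the Mpo-high arrays and 0.26, -0.03 and 0.27 in the Mpo-low arrays, and for Actb 0.69 and 0.67 against 0.77, 0.53 and 0.79. No array median of the series exceeded 3.86. The number of arrays limits the precision, and no batch is named in the labels.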

How the data were processed

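The 17 samples were each measured on 1 Affymetrix mouse array. The values deposited by the authors are log2 levels per probe set, made with RMA and affy per the submitters' processing notes; no source used here gives the versions, and the table holds no detection calls. Values near the median of all values, 3.83, are background, so differences against a group at that level are compressed. The platform annotation gave 1 symbol for 28898 of 45141 probe sets, several for 551 and none for 15588, besides 104 controls; 28689 matched the RefSeq table of GRCm38.p6 by Entrez identifier. Each gene used the probe set with the highest mean. Genes were tested if autosomal, other than Mpo, and above 3.83 in the mean of the GMP leukemias or of healthy GMP; X- and Y-linked genes were left out.

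Under R 4.3.3, limma 3.58.1 (lmFit, then eBayes, two-sided) tested the differences on all 17 arrays with 6 means, namely the Mpo-high and Mpo-low subsets and the other 4 labelled groups, with Benjamini-Hochberg adjustment over 10486 genes. The fit was tested on simulated data. The subsets, the 27 gene lists (454 genes, of which 348 were tested, 54 had no probe set of their name alone and 52 were at background) and the tests were chosen with earlier results of these data known. Named genes were all tested primary granule, sort and transgene genes, up to 4 members of each other maturation list and 2 of each other list by size of the difference, called members first, and the 8 largest rises and falls among called genes without overlap. Other probe sets of a gene and alternatives in samples, filter, probe set, variance model and normalization were compared, and each array was left out in turn. The promoters come from RefSeq's table.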

Additional observations from a re-analysis of the deposited data

Results flagged for a closer look

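Of 117 values tested for a single array far from the other 4 GMP-derived leukemias, 4 were found. This is a smaller share than the 1 in 20 or so that chance alone gives. Ctsc, cathepsin C, was 3.59 in Mpo-low array 1 against 8.36 to 9.03 in the others. Slc4a1, the band 3 anion exchanger of red cells, was 5.83 in Mpo-high array 2 against 3.32 to 3.53. The erythroid mean, which includes Slc4a1 and so is not a separate sign, was 6.31 there against 5.08 to 5.25. Cxcl10, an interferon-induced chemokine, was 9.16 in Mpo-high array 4 against 3.27 to 4.77. The causes were not tested.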

How the results depend on the processing

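No paired analysis was possible because the Mpo-high and Mpo-low arrays share no replicate number and each subset shares only 1 number with healthy GMP. With 1 GMP leukemia array left out, 553 to 1238 genes were called between the subsets, against 1490; without a healthy GMP array it was 1304. Against healthy GMP the counts with 1 array left out were 572 to 1092 in the Mpo-high subset, against 1063, and 2512 to 4035 in the Mpo-low subset, against 4076; 572 was without array 2, and 576 and 581, and 2669 and 2512, were without 1 healthy array. Where a subset keeps 1 array, its spread is taken from the other groups. Other filters, probe sets, variance models, normalizations and sets of arrays gave 1293 to 2115 calls between the subsets, and leaving out the LSK leukemias, an alternative chosen after seeing the data, gave 2141. With Mpo as a continuous covariate 1469 were called, of which 1395 were among the 1490. Of 48 named genes called between the subsets, 18 kept their call in all 14 alternatives run for single genes and 30 lost it in at least 1, while no called difference changed sign. The signal over background limits Rara, Bcl11b, Vpreb1 and Klf1, whose levels are close to it.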

Other observations

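Most genes of the p53 response list were above healthy GMP in both subsets. Of 14 tested genes, 9 were called higher and 0 lower in the Mpo-high arrays (median 2.50), against 4.52% of all genes called higher. In the Mpo-low arrays 12 were called higher and 1 lower (median 2.99), against 14.9% of all genes called higher. The 2 comparisons share the healthy arrays, and leukemia, organ and sort cannot be told apart in them. Activity of p53 was not tested. Between the subsets 3 of the 14 were called lower in the Mpo-high arrays and 0 higher, with a median of -0.54. Over all genes 5.48% were called lower and 8.73% higher. Trp53inp1, a p53-induced nuclear protein, was 11.52 and 10.88 against 12.49, 12.23 and 12.85, and 6.30 and 5.56 in healthy GMP (-1.32 ± 0.39, adjusted p = 0.0364 by limma). Sesn2, a stress-induced sestrin, was 5.82 and 6.04 against 6.93, 7.20 and 7.70 (-1.35 ± 0.34, adjusted p = 0.0168), and the third was the DNA polymerase Polk (-1.01), named after its values were seen. The count was 0 without array 4, 1 without array 2 or 5, 2 without array 1 and 3 without array 3; Sesn2 was lost without array 2, 4 or 5 (adjusted p up to 0.106) and Trp53inp1 without array 1, 2, 4 or 5 (up to 0.291).

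Other stress lists gave no call by limma between the subsets. Of 12 Bcl2 family genes tested the median was -0.13, with Bmf, a death-promoting member, at 7.66 and 6.63 against 8.77, 8.18 and 9.24 (-1.58 ± 0.55, adjusted p = 0.0741) and Bcl2a1a, a survival member with near-identical copies, at 1.07 ± 0.72 (adjusted p = 0.368). The interferon list (19 tested, median -0.29) varied between arrays of the same subset: Oasl2 was 3.52 and 5.45 in the Mpo-high arrays and 4.27, 8.53 and 8.36 in the Mpo-low arrays (-2.57 ± 1.16, adjusted p = 0.163), and the list mean was 5.06 in array 1 and 5.01 in array 2 against 6.44 to 7.01 in the other 3. Immediate early genes (15 tested, median -0.16), which respond to handling as well as to signals, were lowest in array 2 and highest in array 4, with means of 8.50 and 10.69 against 9.36 to 9.62. Atf3 was 5.53 in array 2 and 10.90 in array 4 (1.36 ± 1.50, adjusted p = 0.623), and Dusp2 was 8.08 and 9.42 (1.54 ± 0.60, adjusted p = 0.109).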
